A study of Mus musculus with 24 samples.

Results

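A set of 10 genes of the extracellular matrix was followed in white adipose tissue of mice, taken from the retroperitoneal depot: Cilp, Thbs1, Thbs2, Tnc, Sparc, Postn, Bgn, Fn1, Lox and Timp1. They are 10 of the 56895 entries of the deposited tables and were found there by gene symbol. The genes were chosen with measured values of these data known. Which contrast served was not stated, and Cilp is taken here as chosen by its higher level in HF than in LF males born to CTRL mothers. That contrast is therefore given as a description, with no test, and whether values of the other groups also entered the choice is not known.

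RNA was sequenced from 24 C57BL/6J offspring (C57BL/6JRJ in the study's methods), 3 males and 3 females for each of 4 diet groups, with 1 library per mouse. The mothers ate an AIN-93G diet with vitamin D3 at 1.0 IU/g (CTRL) or 0.0 IU/g (VDD, vitamin D deficient). These diets were given for at least 8 weeks before mating and during gestation, and all animals ate the control diet after birth. From 6 weeks of age the offspring ate a low-fat AIN-93M diet (LF) or a high-fat diet with 45% of its energy from fat (HF) for 8 weeks. The VDD groups model a deficit of the mother and not of the offspring's own diet, and the litter of each mouse was not given, so p-values measure the spread between these mice only. In bulk tissue, fewer cells of a type and less RNA per cell cannot be told apart.

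Between the cells of adipose tissue lies a matrix of collagens, fibronectin and proteoglycans, laid down mainly by fibroblasts and adipocyte progenitors. Matricellular proteins are secreted into that matrix and adjust how cells attach to it and respond to growth factors, without being its main building material. Matrix genes are known to be remodelled when fat depots expand, and the thrombospondins, biglycan and Cilp are each known to bear on TGF-beta signalling.

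Promoter sequences were matched in the RefSeq table of build GRCm38.p6 for 7 of the 10 genes, in 9 windows. The 250 bases before the transcription start of Cilp, Postn and Timp1 are shown, because Cilp and Timp1 varied most between the mice and went closely together, while Cilp and Postn share a TATA box form not found in the Timp1 window. Capitals mark TATATAA, the searched TATA box form, which was chosen after the sequences were seen.
Cilp, chr9:65264930-65265179, plus strand: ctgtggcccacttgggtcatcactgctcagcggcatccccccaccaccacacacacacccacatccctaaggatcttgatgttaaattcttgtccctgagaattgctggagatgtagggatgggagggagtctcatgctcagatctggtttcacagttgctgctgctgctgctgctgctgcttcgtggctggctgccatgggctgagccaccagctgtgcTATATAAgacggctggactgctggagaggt
Postn, chr3:54360857-54361106, plus strand: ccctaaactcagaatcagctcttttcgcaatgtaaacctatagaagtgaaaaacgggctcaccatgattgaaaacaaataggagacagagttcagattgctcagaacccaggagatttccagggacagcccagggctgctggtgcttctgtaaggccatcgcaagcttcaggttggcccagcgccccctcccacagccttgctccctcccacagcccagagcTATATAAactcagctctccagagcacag
Timp1, chrX:20869916-20870165, plus strand: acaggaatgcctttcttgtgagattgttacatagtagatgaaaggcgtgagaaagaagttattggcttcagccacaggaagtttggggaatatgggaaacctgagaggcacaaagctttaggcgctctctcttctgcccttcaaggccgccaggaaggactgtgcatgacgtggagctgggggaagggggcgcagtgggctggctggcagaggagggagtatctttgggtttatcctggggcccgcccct
TATATAA, searched on both strands, lies 30 bases before the start of Cilp, 28 before the Postn start shown and 29 before 1 of the Tnc starts, but not before the other start listed for either of those genes, and 3.04% of the 32851 mouse promoter windows of this length hold it. The GC box GGGCGG was found in Bgn, Timp1 and Tnc and in 32.7% of all windows, CATTCC in Timp1 and in 12.6%, and the AP-1 form TGAGTCA in none of these genes and in 4.46%. A match is a description of the letters only.

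The adipocyte markers were abundant in every library, with a summed level of 8 genes between 328000 and 905300 normalized reads. Normalized reads are read counts scaled to a common depth over the 24 libraries. Several libraries held RNA of other tissues, and VDD LF male 2310 stood furthest apart. Its 8 skeletal muscle markers summed to 1099000 normalized reads against a median of 1377 over all libraries, and its stromal markers were the highest of the 24, at 52390. Muscle markers were also high in VDD HF male 2307 (361700), VDD HF male 2298 (227600) and VDD LF female 2303 (157700), the last with the kidney markers at 8542 against at most 575.8 elsewhere. The sum of the adrenal marker list was high in CTRL HF female 2292 (32560) and VDD HF female 2121 (18880). Of that list, Hsd3b1, Cyp11a1 and Star reached 18350, 12770 and 1424 normalized reads at their highest. Cyp21a1, Cyp11b1, Th and Dbh, on the same list, reached at most 30.55, so these sums are not read as adrenal tissue. The names of 6 libraries, CTRL LF male 2287, CTRL HF male 2131, VDD LF male 2302, VDD HF male 2307, CTRL LF female 2124 and VDD LF female 2312, also hold the word renal, and what it marks was not given. The part of these tissues in the results was not tested.

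Levels between genes were compared as RPKM, reads scaled by exon length and by the depth of the library. Sparc, which encodes a collagen-binding matricellular protein, was by far the most abundant, with a median RPKM of 383 over the 24 libraries. A middle range of median RPKM followed, with Thbs1 at 39.5, Postn at 29.1, Lox at 23.4, Bgn at 22.9, Thbs2 at 20.4 and Fn1 at 17.4, and the ranges of neighbours in that order overlapped. Cilp at 3.94, Timp1 at 2.99 and Tnc at 1.66 were the lowest. The spread ran the other way for several of them: the highest normalized level of Cilp was 475 times its lowest, against 66.9 times for Timp1, 36.6 times for Thbs1, 23.5 times for Fn1 and between 4.54 and 15.1 times for the other 6 genes. The low end of Cilp and Timp1 rests on 1 library, VDD LF male 2078, at 3.84 normalized reads for each.

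**Figure D1:**
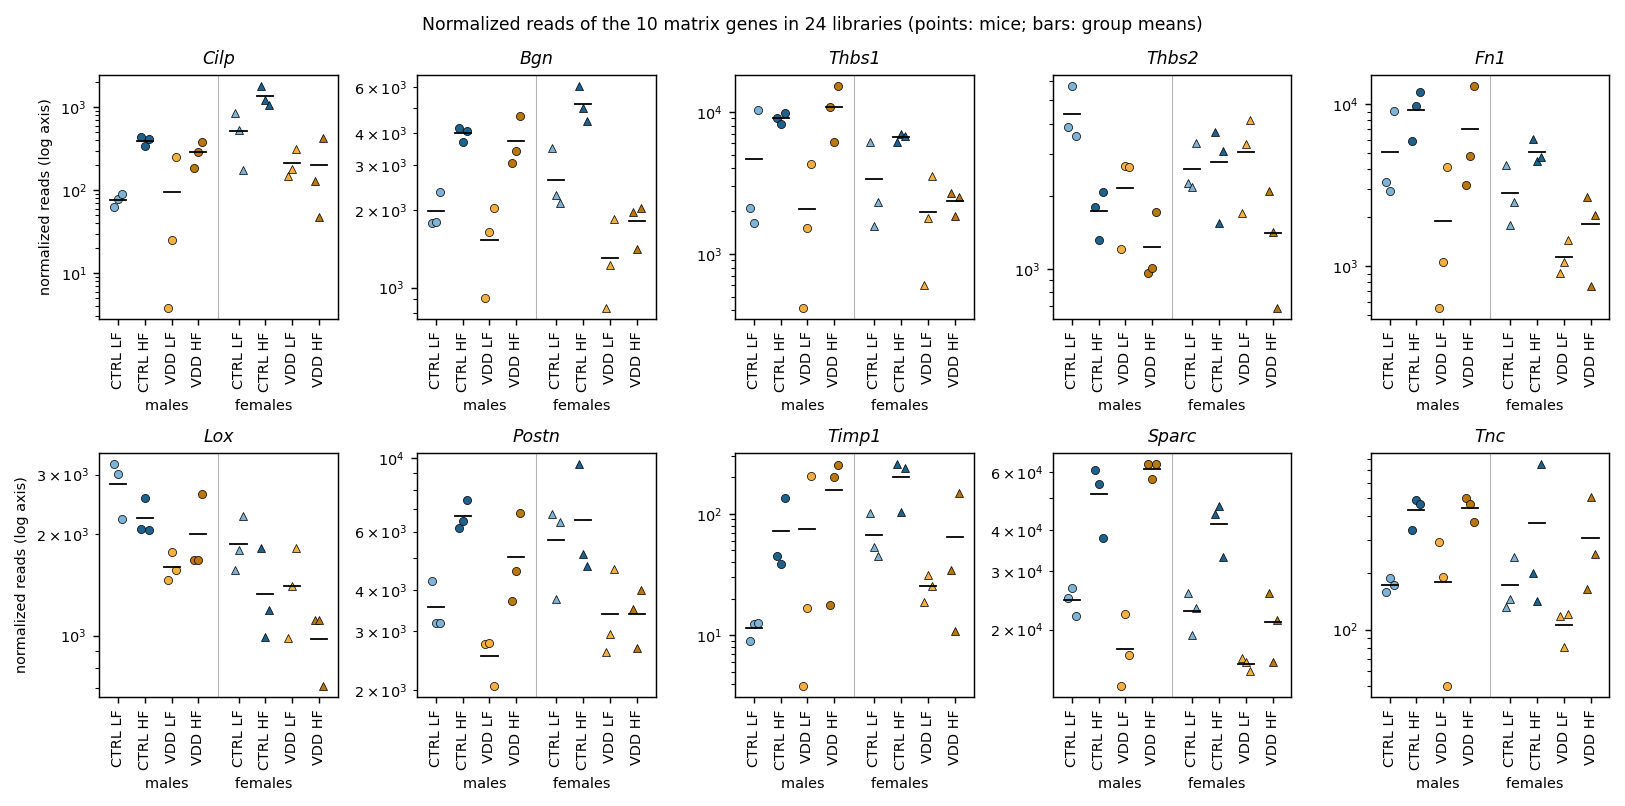
Normalized reads (log axis) of the 10 genes in each mouse, by diet group, with males as circles, females as triangles and group means as bars. Cilp lies between 3.84 and 437.9 in males and between 47.1 and 1827 in females, and the CTRL HF females hold its 3 highest values.

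Cilp encodes cartilage intermediate layer protein, a secreted matrix protein first known from cartilage. In males born to CTRL mothers it stood at 63.0, 78.6 and 90.0 normalized reads under LF and at 338.7, 415.4 and 437.9 under HF. The groups did not overlap, and the log2 fold change was 2.34 ± 0.22 (SE). A call in the comparisons that follow means an adjusted p under 0.01 and a fold above 1.5 or below 0.66. In this contrast 0.0578% of the 15583 entries tested were called, from which nothing is read for these genes. Of the other genes in the same contrast, Timp1 differed by 2.34, Thbs1 by 1.44, Tnc by 1.28, Sparc by 1.03, Bgn by 1.00, Fn1 by 0.98 and Postn by 0.91 on the log2 scale. Lox at -0.34 and Thbs2 at -1.34 pointed the other way. All 3 HF males lay above all 3 LF males for Cilp, Timp1, Tnc, Sparc, Bgn and Postn and below them for Thbs2. The groups overlapped for Thbs1, Fn1 and Lox. The share of all entries tested that separate in this way is not given here. The separation is therefore a description, from which nothing is read for these genes as a set.

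The same diets were compared in males born to VDD mothers, whose libraries are not in that contrast. Here 9 of the 10 genes had a positive log2 fold change under HF, with a median of 1.73 against 0.01 over all 15965 entries tested. None of the 10 was called by limma with Benjamini-Hochberg adjustment, where 0.0752% of all entries were, and none by limma-voom. At an unadjusted p under 0.05, 6 of the 10 were higher under HF, against 13.7% of all entries, and 7 of the 10 with limma-voom. It was 8 of the 10 without library 2310, 4 without VDD LF male 2302, VDD HF male 2307 or VDD HF male 2308, and 5 without either of the others. The share of all entries under that p can differ in fits without a library, with limma-voom or in larger models. That share is not given for those fits, here or below. Their counts are a description of these genes and are not set against the share printed. With 1 model over the 12 male libraries Sparc was called (adjusted p = 0.00206), and with 1 model over all 24 libraries Sparc and Bgn were (adjusted p = 0.000134 and 0.00544). Those models called 614 and 863 entries in all, against 12 in the fit of the 6 libraries.

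Sparc stood at 13530, 16710 and 22350 normalized reads in the VDD LF males and at 57170, 63300 and 63340 in the VDD HF males. The groups were far apart, with a log2 fold change of 1.83 ± 0.28 and an adjusted p of 0.0256 (limma, Benjamini-Hochberg). Without male 2310 it was 1.81, with an adjusted p of 0.0157. It was 1.66 without VDD LF male 2078, with an adjusted p of 0.0961 (limma, Benjamini-Hochberg). Bgn, the small leucine-rich proteoglycan biglycan, stood at 910.9, 1642 and 2045 under LF and at 3055, 3391 and 4650 under HF. Its log2 fold change was 1.32 ± 0.32, or 1.56 without male 2310 and 0.99 without male 2078, and the groups did not overlap.

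Thbs1, thrombospondin 1, which can activate latent TGF-beta, stood at 418.9, 1525 and 4310 normalized reads in VDD LF males and at 6162, 10910 and 15330 in VDD HF males. The groups did not overlap, but the LF mice spread over a wider range than the gap between them, and the log2 fold change was 2.85 ± 0.83 with an adjusted p of 0.0971 (limma, Benjamini-Hochberg). Without library 2310 it was 3.65, and without VDD LF male 2078 it was 1.98. Postn, periostin, was 2055, 2747 and 2770 under LF and 3700, 4561 and 6826 under HF, a log2 fold change of 0.96 ± 0.26. Tnc, tenascin C, was 50.3, 191.2 and 292.1 against 370.3, 464.2 and 499.4, a log2 fold change of 1.63 ± 0.63. The lowest of the Tnc values and the lowest of the Postn values were both from library 2310. The log2 fold changes were 0.89 and 0.81 without it, and 2.16 and 1.03 without male 2078.

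Cilp itself was 3.84, 24.8 and 255.1 normalized reads in the VDD LF males and 185.2, 286.0 and 385.0 in the VDD HF males. The LF mouse at 255.1 is library 2310, which overlaps the HF mice, while the other two lie below them. The log2 fold change was 3.11 ± 1.34, with an interval from -0.13 to 6.35 and an adjusted p of 0.208 (limma, Benjamini-Hochberg). Without library 2310 it was 4.61, with an adjusted p of 0.0176, and not called. It was 1.76 without VDD LF male 2078, the mouse at 3.84, with an adjusted p of 0.37 (limma, Benjamini-Hochberg). Timp1, the inhibitor of matrix metalloproteinases, was 3.84, 16.8 and 203.6 under LF and 17.8, 199.4 and 252.7 under HF. Unlike for Cilp, an HF mouse at 17.8 lay just above the LF mouse at 16.8. Library 2310 again gave the high LF value, and the log2 fold change was 1.92 ± 1.58 with it and 3.40 without it. That of Timp1 was 0.71 without male 2078 and 3.11 without VDD HF male 2298.

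Fn1, fibronectin, to which cells bind through integrins, was 554.7, 1055 and 4083 normalized reads under LF and 3170, 4829 and 13060 under HF in these males. The LF mouse at 4083 is again library 2310, and the log2 fold change of 2.13 ± 0.83 became 2.92 without it. Lox, lysyl oxidase, which cross-links collagen and elastin, ranged from 1459 to 1774 under LF and from 1675 to 2626 under HF, a log2 fold change of 0.29 ± 0.21, or 0.27 without library 2310. Thbs2, the second thrombospondin, ranged from 1209 to 2665 under LF and from 966.1 to 1718 under HF. Its log2 fold change of -0.78 ± 0.38, or -0.60 without library 2310, was the only negative one among the 10. Lox was at 0.23 and Thbs2 at -1.15 without male 2078.

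The macrophage markers reached higher sums under HF in this contrast, with overlap between the groups. Their summed level ran from 5683 to 16510 normalized reads in the VDD LF males and from 11150 to 36600 in the VDD HF males. Stromal markers ran from 12690 to 52390 and from 16180 to 41360, smooth muscle and pericyte markers from 4011 to 33740 and from 8303 to 18550, and endothelial markers from 6647 to 13260 and from 10360 to 17290. No marker of those 4 lists was at 0 in any library. Their part in the result was not tested.

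**Figure D2:**
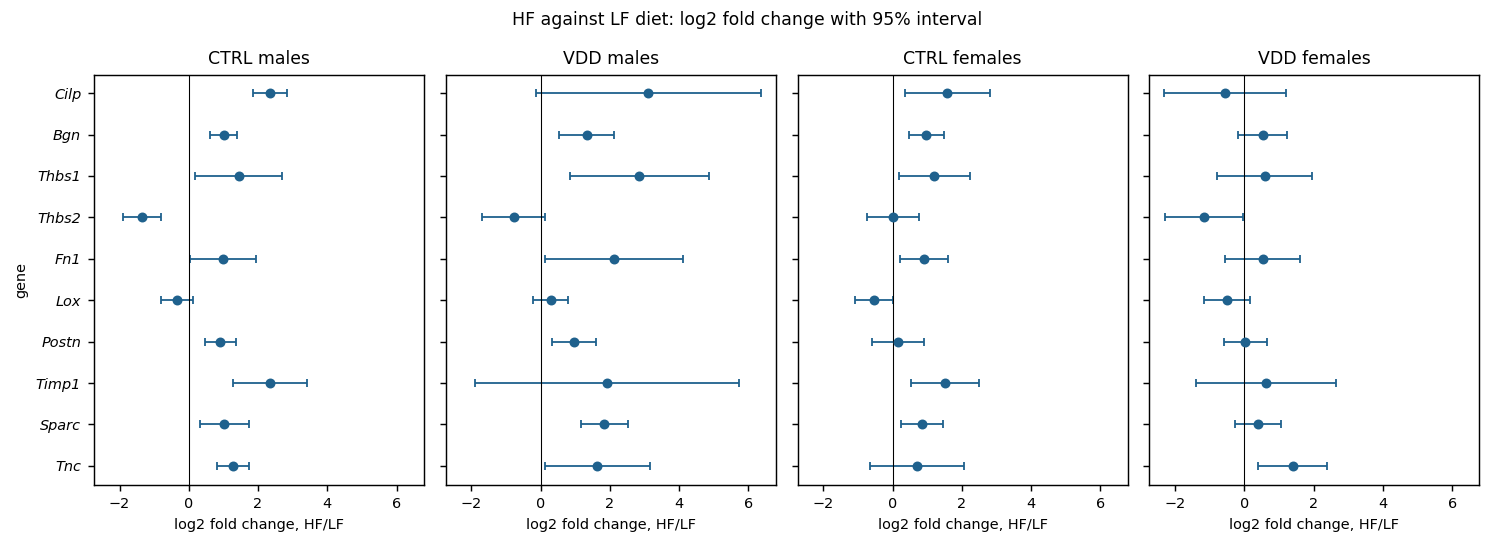
Log2 fold change of HF over LF for the 10 genes, with bars for 95% intervals, in CTRL males (a description, since that contrast chose Cilp), VDD males, CTRL females and VDD females. In VDD males the points of 9 genes lie above 0 and that of Thbs2 at -0.78, with the widest intervals for Cilp and Timp1.

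In females born to CTRL mothers the HF diet was compared in the same way. The median log2 fold change of the 10 genes was 0.87 against 0.01 over all 16563 entries tested, and none was called by limma or limma-voom, as no entry was (0%). At an unadjusted p under 0.05, 6 of the 10 were higher under HF, against 14.4% of all entries, by limma and by limma-voom alike, and Lox was lower. It was 3 of the 10 without CTRL LF female 2125 or CTRL HF female 2290, and 3 and 2 in models over 12 and 24 libraries. Cilp was 177.4, 538.1 and 856.3 normalized reads under LF and 1054, 1212 and 1827 under HF, without overlap, a log2 fold change of 1.59 ± 0.53. Bgn was 2133, 2282 and 3478 against 4448, 4998 and 6096, a log2 fold change of 0.98 ± 0.21 with an adjusted p of 0.0398 (limma, Benjamini-Hochberg). For Timp1 the values were 45.3, 53.7 and 101.8 under LF and 102.5, 239.5 and 257.2 under HF, a difference of 1.52 ± 0.42 on the log2 scale.

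Sparc ranged from 19240 to 25800 normalized reads in the CTRL LF females and from 33160 to 47310 in the CTRL HF females, with a log2 fold change of 0.84 ± 0.26. Fn1 (0.90 ± 0.29) also separated the groups, while those of Thbs1 (1.21 ± 0.44), Tnc (0.71 ± 0.58), Postn (0.15 ± 0.32), Thbs2 (0.01 ± 0.32) and Lox (-0.55 ± 0.23) overlapped. Macrophage markers ran from 4963 to 7715 in these LF females and from 11890 to 14780 in the HF females, stromal markers from 21180 to 25360 and from 34010 to 41810, and mesothelial markers from 4423 to 6277 and from 7817 to 15350. Adipocyte markers ran from 453300 to 532900 and from 328000 to 405000. The part of these lists in the result was not tested.

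In females born to VDD mothers the differences with diet were mostly within the spread of the mice. At an unadjusted p under 0.05, Tnc was higher under HF, where 2.51% of all 15923 entries were, and Thbs2 was lower, where 2.54% were. None of the 10 was called by limma or limma-voom, as no entry was (0%), and limma-voom had 1 at an unadjusted p under 0.05. Tnc was 80.9, 117.8 and 120.5 normalized reads under LF and 164.5, 251.2 and 506.9 under HF, a log2 fold change of 1.39 ± 0.42. Cilp was 149.1, 179.5 and 316.9 under LF and 47.1, 129.8 and 426.2 under HF, and its log2 fold change of -0.56 ± 0.74 had an interval from -2.31 to 1.19. Without VDD HF female 2083, the mouse at 47.1, it was 0.20.

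Averaged over both maternal diets, the females had 5 of the 10 genes higher under HF at an unadjusted p under 0.05, against 10.5% of 17430 entries, and Lox lower. None was called by limma or limma-voom, as no entry was (0%), and limma-voom had 4 higher and 1 lower at that unadjusted p. Across the fits that each dropped 1 library, 2 to 5 genes were higher, with 2 without VDD LF female 2311. It was 3 without CTRL LF female 2125 or 2335, CTRL HF female 2290 or 2292, VDD LF female 2303, or VDD HF female 2081 or 2121. The log2 fold changes were 0.76 ± 0.20 for Bgn, 0.63 ± 0.17 for Sparc, 1.06 ± 0.40 for Tnc and 0.52 ± 0.51 for Cilp.

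The difference between male and female VDD offspring in the response to HF was tested as an interaction. For 5 of the 10 genes it was positive, a larger HF minus LF value in males, at an unadjusted p under 0.05, against 6.45% of 18399 entries, and none was called by limma, where 0.0163% were, or by limma-voom, which had 4 at that unadjusted p. Leaving out 1 library at a time gave 2 to 6 of the 10, with 2 without VDD HF male 2308 or VDD LF female 2312, and 3 without VDD LF male 2078, VDD LF female 2311, or VDD HF female 2083 or 2121. Sparc gave 1.44 ± 0.34 (adjusted p = 0.0728, limma, Benjamini-Hochberg) and Cilp 3.67 ± 1.34 (adjusted p = 0.267). Without male 2310, the adjusted p was 0.049 for Sparc and 0.0156 for Cilp, whose difference became 5.18. Sparc was at 1.27 and Cilp at 2.32 without male 2078, with adjusted p-values of 0.21 and 0.515 (limma, Benjamini-Hochberg). The remaining 3 were Thbs1 at 2.27, Postn at 0.93 and Lox at 0.79, or 3.08, 0.79 and 0.78 without male 2310. They were 1.40, 1.00 and 0.73 without male 2078.

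The effect of maternal vitamin D deficiency was then compared within each offspring diet. In HF females, 7 of the 10 genes were lower in VDD than in CTRL offspring at an unadjusted p under 0.05, against 9.1% of 16480 entries. The median log2 fold change was -1.26 against 0.00 over all entries tested. None of the 10 was called by limma or limma-voom, as no entry was (0%), and limma-voom also had 7 lower at that unadjusted p. Without CTRL HF female 2290 or VDD HF female 2083 it was 4 of the 10. The CTRL HF females of this comparison are also those of the diet comparison above, so the 2 sets of values are not independent.

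Cilp was 1054, 1212 and 1827 normalized reads in CTRL HF females and 47.1, 129.8 and 426.2 in VDD HF females. The groups were wide apart, at a log2 fold change of -3.24 ± 0.72 with an adjusted p of 0.149 (limma, Benjamini-Hochberg), and without female 2083 it was -2.48. Thbs1 lay between 6168 and 6968 in CTRL HF females and between 1854 and 2680 in VDD HF females, and Bgn between 4448 and 6096 and between 1410 and 2045. The spread within these groups was narrow, and the log2 fold changes were -1.50 ± 0.18 and -1.51 ± 0.20, with an adjusted p of 0.131 for each (limma, Benjamini-Hochberg). Fn1 (-1.64 ± 0.45), Sparc (-0.98 ± 0.32) and Postn (-0.86 ± 0.30) were without overlap as well. Timp1 was at -2.22 ± 0.88, Thbs2 at -1.02 ± 0.46, Lox at -0.41 ± 0.27 and Tnc at 0.00 ± 0.67, each with overlapping groups.

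In LF females the same direction held for 9 of the 10 genes, with Thbs2 at 0.17 ± 0.33. At an unadjusted p under 0.05, 6 of the 10 were lower in VDD offspring, against 6.53% of 16046 entries, and 5 with limma-voom, with none called by either, as no entry was (0%). Leaving out 1 library at a time gave 3 to 5 of the 10. It was 3 without VDD LF female 2311, and 4 without CTRL LF female 2335 or 2124 or without VDD LF female 2303, the library with kidney and muscle markers. It was also 3 in models over 12 and 24 libraries. The 6 were Timp1 (-1.31 ± 0.37), Fn1 (-1.25 ± 0.32), Bgn (-1.05 ± 0.31), Postn (-0.73 ± 0.30), Tnc (-0.67 ± 0.28) and Sparc (-0.52 ± 0.21). Fn1, for example, was 1804, 2479 and 4225 normalized reads in CTRL LF females and 908.3, 1065 and 1461 in VDD LF females, without overlap. Cilp was at -1.09 ± 0.56 with overlapping groups.

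Averaged over both offspring diets, all 10 genes were on the lower side in VDD females, 7 of them at an unadjusted p under 0.05, against 12.4% of 17430 entries. None was called by limma or limma-voom, as no entry was (0%), and limma-voom also had 7 at that unadjusted p. The adjusted p-values (limma, Benjamini-Hochberg) were 0.0504 for Bgn, 0.0534 for Fn1, 0.0561 for Sparc and 0.0608 for Cilp, at log2 fold changes of -1.29 ± 0.20, -1.45 ± 0.30, -0.76 ± 0.17 and -2.17 ± 0.51. Without VDD LF female 2312 Bgn was called, at -1.43 with an adjusted p of 0.00413. Of the fits without a library, that fit also had the most calls over all entries, as counted below. Timp1 was at -1.77 ± 0.52, Thbs1 at -1.19 ± 0.41 and Postn at -0.80 ± 0.23. The interaction of maternal with offspring diet had an unadjusted p of at least 0.05 for all 10 genes by limma and by limma-voom, against 7.76% of entries under it and none called (0%), and for Cilp it was -2.17 with an interval from -4.42 to 0.08.

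Marker lists were also compared between CTRL HF and VDD HF females. The stromal sums did not overlap, the mesothelial and adipocyte sums did, and the macrophage range in VDD HF females enclosed that in CTRL HF females. Stromal markers ran from 34010 to 41810 normalized reads in CTRL HF females and from 13180 to 29800 in VDD HF females, macrophage markers from 11890 to 14780 and from 4906 to 22410, and mesothelial markers from 7817 to 15350 and from 3241 to 8355. Adipocyte markers ran from 328000 to 405000 and from 382100 to 626600. Their part in the result was not tested.

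**Figure D3:**
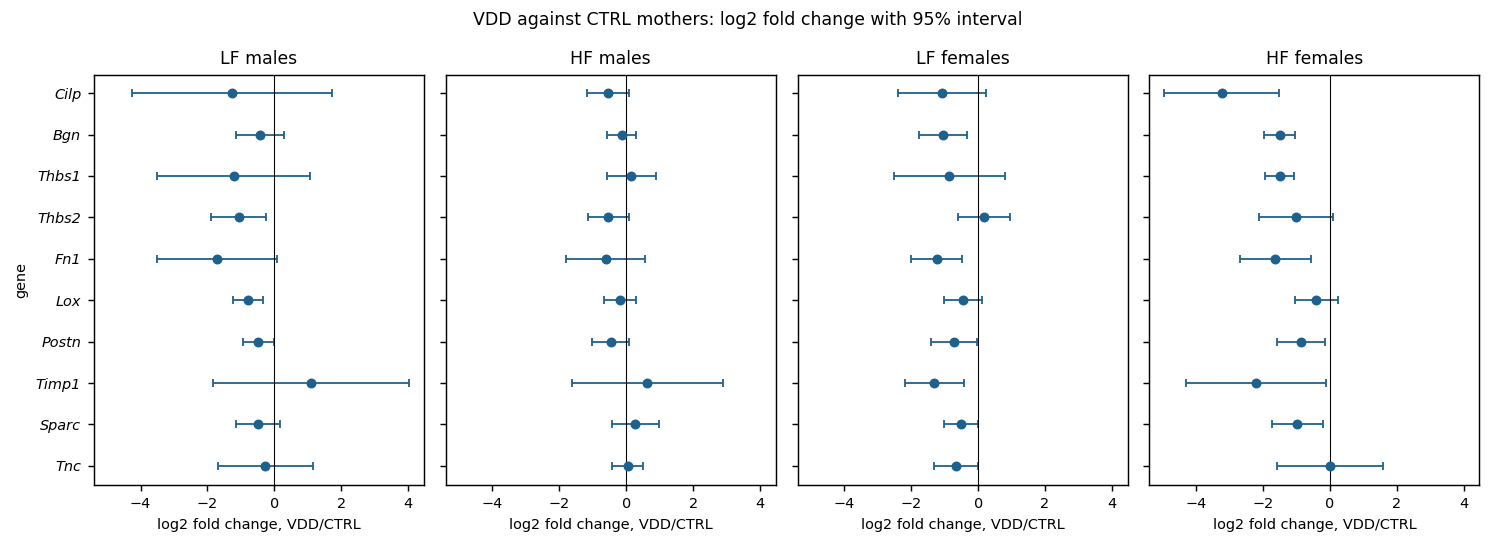
Log2 fold change of VDD over CTRL mothers for the 10 genes, with bars for 95% intervals, in LF males, HF males, LF females and HF females. In HF females 9 genes lie below 0, from -0.41 for Lox to -3.24 for Cilp, and Tnc lies at 0.00.

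The maternal diets were compared in males in the same way, and the difference between the sexes in this effect was not tested. In LF males, Lox, Thbs2 and Postn were lower in VDD offspring at an unadjusted p under 0.05, 3 of 10 against 3.67% of 15438 entries, and limma-voom had 2. It was 6 of the 10 without library 2310, 1 without CTRL LF male 2293 and 2 without any 1 of the other libraries. The share of all entries in these fits is not given, so these counts are not set against the 3.67%. Lox was 2215, 3019 and 3225 normalized reads in CTRL LF males and 1459, 1568 and 1774 in VDD LF males, without overlap, a log2 fold change of -0.79 ± 0.19. Thbs2 was at -1.07 ± 0.35 and Postn at -0.48 ± 0.20. Without library 2310 the 3 values were -0.78, -1.25 and -0.33. In HF males none of the 10 was under that unadjusted p by limma or limma-voom, against 5.31% of 16013 entries. Without VDD HF male 2308, 5 of the 10 were lower at that unadjusted p, and the share of all entries in that fit is not given either. None of the 10 was called by either tool in LF or HF males, as no entry was (0%). The CTRL males here are those whose diet contrast chose Cilp, so no test is read for Cilp. It is among the 6 counted without library 2310 and the 5 counted without male 2308, and its place in both counts is a description. Its value in LF males was -1.27 ± 1.27, or -2.76 without library 2310 and 0.078 without VDD LF male 2078. In HF males it was -0.55 ± 0.27.

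Averaged over both offspring diets, 4 of the 10 genes were lower in VDD males at an unadjusted p under 0.05, against 4.31% of 16925 entries, and 3 with limma-voom, none called by either, as no entry was (0%). They were Lox (-0.49 ± 0.15), Thbs2 (-0.80 ± 0.24), Postn (-0.47 ± 0.16) and Fn1 (-1.17 ± 0.51), with adjusted p-values of at least 0.455 (limma, Benjamini-Hochberg). Leaving out 1 library at a time gave 3 or 4 of the 10, except that it was 6 without library 2310. Without that library the 4 values were -0.49, -0.89, -0.40 and -1.57. They were -0.46, -0.61, -0.50 and -0.85 without VDD LF male 2078. Cilp was at -0.91 ± 0.72, or -1.66 without library 2310 and -0.23 without male 2078.

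Between the sexes, averaged over the 4 diet groups, Lox was higher in males and was called, 1 of the 10 where 7.3% of 18399 entries were. Its log2 fold change, male over female, was 0.66 ± 0.13 (adjusted p = 0.00142, limma, Benjamini-Hochberg). At an unadjusted p under 0.05, 4 of the 10 differed, against 33% of all entries. Sparc, at 0.52 ± 0.12, passed the adjusted p (0.00448, limma) but not the fold. Cilp was on the lower side in males, at -1.49 ± 0.47 with an adjusted p of 0.0323. It was called without library 2310, at -1.86 with an adjusted p of 0.000852 (limma), and the share of all entries called in that fit is not given. It was not called without VDD LF male 2078, at -1.15 with an adjusted p of 0.038 (limma). Fn1 was at 0.91 ± 0.32, with an adjusted p of 0.0484. Without library 2310 Lox was at 0.66 and still called, Sparc at 0.53 and Fn1 at 0.71.

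Over the 24 libraries the 10 genes gave 45 pairs, of which 38 had a Pearson correlation above 0 on the scale of log2(normalized reads + 1), with a median of 0.46. These correlations share libraries and depth scaling, and are a description. The highest was that of Thbs1 with Fn1 at 0.883 and the lowest that of Thbs2 with Tnc at -0.425. With each library taken relative to its group mean, the median was 0.241. On that scale Bgn with Thbs1 was the highest at 0.856 and Cilp with Timp1 stood at 0.849, while the correlation of Thbs2 with Lox was 0.765 and that of Cilp with Tnc was -0.701. Among the 10, Cilp went most closely with Timp1 (0.818) and Bgn (0.767), and its correlation was 0.017 with Tnc, 0.02 with Thbs2 and -0.121 with Lox.

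**Figure D4:**
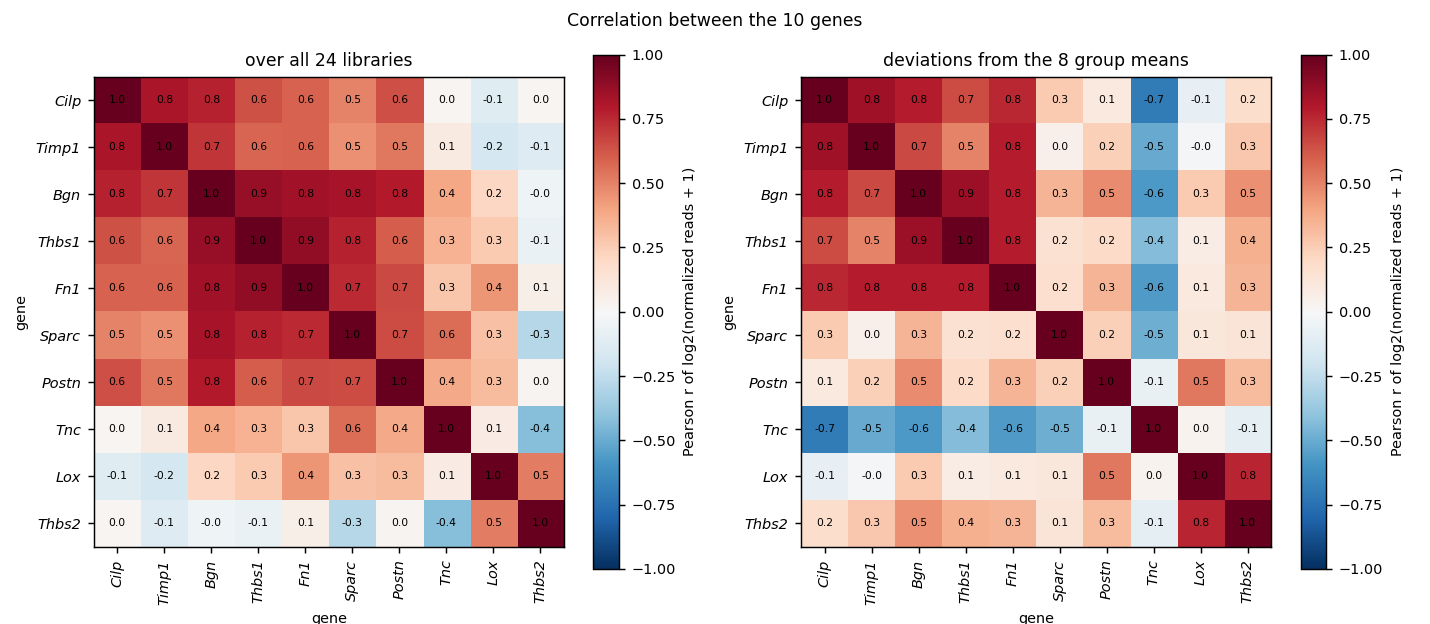
Pearson correlation of log2(normalized reads + 1) between the 10 genes over 24 libraries (left) and after taking each library relative to the mean of its group (right), on a colour scale from -1 to 1. Cilp, Timp1 and Bgn form a block of high values, while Tnc, Lox and Thbs2 correlate weakly or negatively with Cilp.

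Of 12367 entries with a mean of at least 50 normalized reads, the 5 whose levels went most closely with those of Cilp over the 24 libraries were Fzd2 (r = 0.927), a Wnt receptor, Ptgfrn (0.922), Slc4a3 (0.921), an anion exchanger, C1qtnf7 (0.915) and Mfap4 (0.914), a microfibril-associated protein. Timp1 ranked 135 in this order, and Bgn 277. Mfap4 was, like Cilp, highest in CTRL HF females, with 408.5 to 634.7 normalized reads, and stood at 0 to 25.7 in VDD LF males. The summed mesothelial markers had a correlation of 0.717 with Cilp and 0.668 with Timp1, and the smooth muscle and pericyte markers 0.691 and 0.616. The macrophage markers had 0.852 with Fn1, 0.761 with Thbs1 and 0.314 with Cilp. The adipocyte markers had -0.63 with Cilp and -0.731 with Timp1, and the kidney markers 0.523 and 0.468. Of the kidney list, Umod, Slc12a1, Slc34a1 and Kap were at 0 in 18, 21, 17 and 16 libraries. Only Lrp2, with a median of 104.6 normalized reads, was above 0 in every library. The kidney correlations are therefore not read as kidney tissue. For the adrenal list, not read here as adrenal tissue, the correlations with Cilp and Timp1 were 0.599 and 0.614. The stromal markers had 0.751 with Fn1, 0.611 with Timp1 and 0.599 with Cilp, and the skeletal muscle markers between -0.275 and 0.149 with each of the 10 genes. The part of these tissues in the correlations was not tested.

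The other genes of the matrix were taken from 7 lists of 138 genes in all. In VDD LF against VDD HF males, 46 of the 123 tested were higher under HF and 3 lower at an unadjusted p under 0.05, where 13.7% of all entries were higher, with a median log2 fold change of 0.68 against 0.01 over all entries. That count ran from 33 without VDD LF male 2078 to 72 without library 2310, and the share of all entries in fits without a library is not given. Genes of cross-linking and fibre assembly gave 18 of 26 higher, and fibrillar collagens 6 of 7, with Col1a1 at 1.94. The matricellular list gave 4 of 15, led by Wisp2 at 3.40 (adjusted p = 0.0253, limma, Benjamini-Hochberg), and the small leucine-rich proteoglycans 1 of 10, Prelp at 2.54, with Podn at -0.77. The metalloproteinases and inhibitors gave 4 of 20 higher, with Mmp12, a macrophage elastase, at 5.19 (adjusted p = 0.0137). The 1 call in these lists was Adamts5, an aggrecanase, with a log2 fold change of 2.26 (adjusted p = 0.00742, limma), which is named after its value was seen. That call was lost with limma-voom (adjusted p = 0.0115), without the 6 libraries named renal (adjusted p = 0.255, limma), and when any 1 library other than 2310 was left out (adjusted p from 0.024 to 0.0795, limma). Matrix receptors gave 9 of 24, with Sdc1 at 1.48 and Sdc4 at -1.55, and the TGF-beta axis 4 of 21, with Ltbp3 at 0.81 and Skil at -0.52. Without library 2310 the counts were 23 of 26 for cross-linking, 6 of 7 for the collagens, 9 of 15 for the matricellular list, 6 of 10 for the proteoglycans, 5 of 20 for the metalloproteinases, 15 of 24 for the receptors and 8 of 21 for the TGF-beta axis.

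In females the same lists gave 35 of 129 higher and none lower under HF, averaged over the mothers' diets, against 10.5% of all entries, with a median log2 fold change of 0.26, and with Fbn2 at 2.17 and Col3a1 at 1.28. In VDD against CTRL females, averaged over the offspring diets, 72 of 129 were lower and 2 higher, where 12.4% of all entries were lower, with a median of -0.59 against -0.01 over all entries, and none of either set was called by limma. The cross-linking list had 23 of 28 lower, the matricellular list 9 of 17, the small leucine-rich proteoglycans 5 of 10, the metalloproteinases and inhibitors 11 of 21, the collagens 5 of 7, the matrix receptors 12 of 24 and the TGF-beta axis 7 of 22. In males the same contrast gave 23 of 127 lower and none higher, where 4.31% of all entries were lower, with a median of -0.25. That count ran from 8 without CTRL LF male 2296 to 48 without library 2310, and the share of all entries in those fits is not given.

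Fn1, Lox, Thbs1, Timp1 and Tnc each overlap 1 gene on the opposite strand, and the strand setting of the counting was not given in the sources used here. Without it, reads of such a pair cannot be told apart. In build GRCm38, Cilp lies at chr9:65265180-65280605, Sparc at chr11:55394500-55423183, Bgn at chrX:73483602-73495933, Timp1 at chrX:20870166-20874735 and Thbs1 at chr2:118111876-118127133. Positions are those of GENCODE M21, and each gene was counted over its exons.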

How the data were processed

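Retroperitoneal adipose RNA (TruSeq Stranded mRNA kit, paired-end, NextSeq 500) was sequenced for 24 mice. According to the submitters' processing notes and the study's methods, reads were aligned to mm10 with STAR 2.7.0d, assembled with Cufflinks 2.2.1, counted with featureCounts 1.6.1 on GENCODE genes plus assembled loci, and compared by the authors using DESeq2. The 8 tables deposited each hold 1 comparison of 6 libraries, and their library columns hold log2 values that the authors made from normalized counts. Their fold changes, standard errors and p-values were not used. The deposited log2 values gave whole reads for 100% of entries within 0.02 of a read, so depths could be recovered: 13346779 to 18484346 reads per library, median 15933506. Of 56899 entries, 4 with duplicated names were left out.

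Size factors (median of ratios) were set on the 6 libraries compared for tests, and on all 24 for values printed per mouse. A filter kept entries that reached 10 normalized reads in 3 or more libraries, and these were tested on log2(normalized reads + 1) with limma 3.58.1 (R 4.3.3, empirical Bayes, two-sided), so the fold changes of low genes are understated. P-values were adjusted by the Benjamini-Hochberg method over all entries tested, and all 10 genes passed the filter in every comparison. A call needed an adjusted p under 0.01 and a fold above 1.5 or below 0.66. Averages and interactions were fitted over the 12 libraries of a sex or over all 24. The test was run on simulated data first. Correlations used Python 3.11.15.

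The 10 genes, the matrix and marker lists and the tests were chosen with earlier results of these data known. The text names the 10 genes, the genes with the largest and smallest change at an unadjusted p under 0.05 in each list, for VDD males and for the diet average of females, and the 5 entries closest to Cilp. Groups follow the labels, and mouse numbers are those in the library column names, which no label gives. Positions and exon lengths came from GENCODE M21, while the study's methods name an earlier GENCODE release for its annotation. Exon lengths used for RPKM may therefore differ from those counted. Promoter sequences are RefSeq's, and no window was used for Thbs1, Fn1 and Lox. Alternatives were another pseudocount, filter, scaling and tool, larger fits, and leaving out each library. The 24-library fit and the fit without the 6 libraries named renal were added after the data were seen.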

Additional observations from a re-analysis of the deposited data

How the results depend on the processing

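No paired analysis was possible because the library columns carry mouse numbers and not the replicate numbers of the labels. Counts of called entries moved with the settings, and the cause was not tested. In CTRL LF against CTRL HF males the 9 calls became 15 with a pseudocount of 10, 39 with no filter on low values, 22 with a filter of 50 normalized reads and 76 without the libraries named renal. In VDD LF against VDD HF males the 12 calls became 47 with a pseudocount of 10, 37 with no filter, 0 with limma-voom, 614 and 863 with models over 12 and 24 libraries, and 0 without the libraries named renal. CTRL LF against CTRL HF females had 13 calls with no filter, 13 with the filter of 50 and 23 in the 24-library model. That model gave 2 calls in CTRL LF against VDD LF males and 5 in CTRL HF against VDD HF females. The male maternal average had 1 call when scaled by total reads. The sex average had 860 calls with the filter of 50. The sex difference in VDD offspring had 11 with a pseudocount of 10, 1 with the filter of 50, 18 scaled by total reads and 0 with limma-voom.

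Leaving out 1 library at a time gave, for diet, 0 to 11 calls with CTRL males and 0 to 251 with VDD males, the 251 without VDD LF male 2310. It gave 0 to 1 for diet in CTRL females, 0 to 148 for CTRL HF against VDD HF males (without VDD HF male 2308), 0 to 76 for the female diet average (without VDD HF female 2083), 0 to 139 for the female maternal average (without VDD LF female 2312) and 2 to 34 for the sex difference (without VDD LF male 2310). Fewer libraries also change which entries pass the filter.

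Some values of the 10 genes changed sign. Thbs2 with diet in CTRL females became -0.018 with limma-voom and -0.074 without the libraries named renal, and in CTRL LF against VDD LF females -0.18 without those libraries. Tnc in CTRL HF against VDD HF females became -0.0028 with a pseudocount of 10, -0.29 scaled by total reads and -0.010 in both larger models. Leaving out 1 library gave, for diet in CTRL females, -0.23 to 0.37 for Thbs2, -0.17 to 0.34 for Postn and -0.013 to 1.18 for Tnc. In VDD females it gave -1.36 to 0.20 for Cilp, -0.10 to 1.16 for Thbs1, -0.14 to 0.27 for Postn and -0.32 to 1.49 for Timp1. For maternal diet in LF males it gave -2.76 to 0.078 for Cilp, -0.38 to 2.30 for Timp1 and -0.79 to 0.47 for Tnc, and in HF males -0.15 to 0.50 for Thbs1, -0.045 to 1.83 for Timp1 and -0.12 to 0.17 for Tnc. It gave -0.10 to 0.53 for Thbs2 in LF females and -0.47 to 0.72 for Tnc in HF females. For the averages it gave -0.062 to 0.22 for Postn (diet, females), -0.58 to 0.021 for Tnc (maternal, females) and -0.37 to 0.26 for Tnc (maternal, males), and for the sex difference -0.057 to 0.75 for Thbs2 and -0.49 to 0.77 for Tnc.

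At an unadjusted p under 0.05, the count of the 10 genes higher under HF in VDD males went from 6 to 4 without the libraries named renal.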
